A study of Mus musculus with 2 samples.

Results

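The 10 genes described here encode the intermediate filament proteins of the lens and of neighbouring cells, and the lamins of the nucleus. They are Bfsp1 and Bfsp2 (the beaded filament), Vim, Synm, Des, Nes and Gfap (cytoplasmic filaments), and Lmna, Lmnb1 and Lmnb2 (lamins). They were taken by name from 20655 genes on the array, through RefSeq transcript identifiers, and together carry 16 probes printed as 34 spots. The data are 1-colour Agilent arrays of total RNA from the lens of mice at postnatal day 0, on a mixed C57BL/6 background, with 1 array for each genotype. The first array held lens RNA labelled Foxp1 KO, from mice with a lens-specific knockout of the forkhead transcription factor Foxp1. The second held lens RNA labelled wild-type, from litter mates. The labels of both samples name the alleles Foxp1-flox/flox and Pax6-L-Cre, so which of them the wild-type animals carried is not given, nor is the number or sex of the animals behind each RNA. With 1 array a genotype there is no replicate check and no test. Every difference below is one between these arrays, and covers neither animals nor dissections.

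Intermediate filaments are rope-like polymers of coiled-coil proteins that anchor to membrane junctions and to the nucleus. Lens fibre cells build an additional one, the beaded filament, from filensin (Bfsp1) and phakinin (Bfsp2), which pair with each other and bind alpha crystallin. Vimentin is the main filament of lens epithelium and young fibres. Lamins line the inside of the nuclear envelope, which fibre cells dismantle when they lose their nuclei.

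Lens identity was evident on both arrays. The alpha crystallin gene Cryaa read 305103 in Foxp1 KO lens and 310852 in wild-type lens, and the fibre membrane protein gene Lim2 read 82766 and 84758 in the same order. Values are processed signals, the brightness of a spot after background subtraction, and each log2 difference is Foxp1 KO minus wild-type after the 75th percentile of each array was subtracted. Foxp1 itself differed by -1.82, -1.84 and -1.33 over its 3 probes. The probe at -1.33 was dim, at 38.4 in Foxp1 KO lens and 97.5 in wild-type lens. Dim probes as a class read lower on the Foxp1 KO array. Among the 1426 dimmest measured genes the median difference was -0.61, against 0.06 among the 1426 brightest. Added E1A spike-in RNAs differed by -0.20 to 0.01 at wild-type signals of 284 and above, and by -1.12 to -3.14 for the 3 that read 81.4 or less.

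Of the 10 genes, 9 were measured, meaning that over 50% of the spots of a probe were well above background on both arrays. None of the 9 reached a 2-fold difference in either direction (0 higher, 0 lower). The background for this count was 6.89% of the 14254 measured genes at least 2-fold apart either way (143 higher and 839 lower in Foxp1 KO lens), so a count of 0 among 9 genes is near the background. The members had 5 differences above 0 and 4 below, with a median of 0.04 and a range from -0.57 to 0.49. Over all measured genes, 7229 lay above 0 and 7025 below, with a median of 0.00. Array medians, used in place of the 75th percentile, moved every value up by 1.08, so each direction here is relative to the 75th percentile. The remaining gene, Des, was above background in wild-type lens only and is described by a bound.

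**Figure D1:**
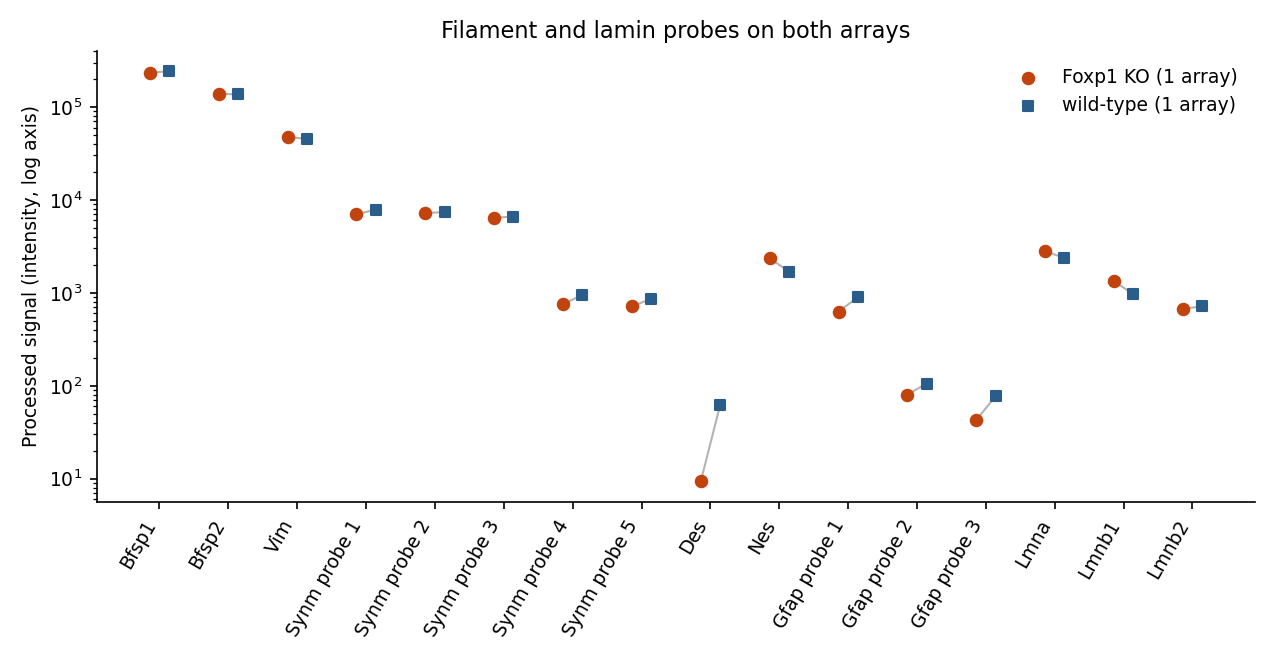
Processed signal (intensity, log axis) of each of the 16 probes, with Foxp1 KO as circles on the left of each pair and wild-type as squares on the right, 1 array each. The pairs of Bfsp1, Bfsp2 and Vim are nearly level, and the Des pair is the steepest, at 9.36 in Foxp1 KO and 61.4 in wild-type lens. Probes of different genes differ in how strongly they bind, so heights compare arrays and not genes.

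Because Foxp1 acts by binding DNA, the bases before the start sites of 4 members are shown: the beaded filament pair, which read nearly the same on both arrays, and Nes and Des, which lay at the high and low ends of the members. Each is the 250 bases upstream of the RefSeq start on build GRCm38.p6, written in the direction of the gene. Bfsp1 is at chr2:143863174-143863423, minus strand. Bfsp2 is at chr9:103449177-103449426, minus strand. Nes is at chr3:87970843-87971092, plus strand. Des is at chr1:75360042-75360291, plus strand. Capitals mark matches on either strand to a forkhead core, to the TATA box letters TATAAA or to the CCAAT box letters CCAAT. The forkhead cores searched were TGTTTA, its variant TGTTTG, the form TATTTA and its variant TATTTG.
Bfsp1: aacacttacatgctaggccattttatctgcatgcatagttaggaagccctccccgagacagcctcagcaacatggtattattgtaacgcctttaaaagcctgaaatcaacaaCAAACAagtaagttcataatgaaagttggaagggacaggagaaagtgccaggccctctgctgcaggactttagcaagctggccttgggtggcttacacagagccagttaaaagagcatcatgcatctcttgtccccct
Bfsp2: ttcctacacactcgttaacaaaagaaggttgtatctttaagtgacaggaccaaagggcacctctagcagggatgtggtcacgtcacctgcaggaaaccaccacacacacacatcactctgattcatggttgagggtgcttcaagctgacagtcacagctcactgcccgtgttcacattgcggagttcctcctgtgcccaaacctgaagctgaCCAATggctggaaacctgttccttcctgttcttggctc
Nes: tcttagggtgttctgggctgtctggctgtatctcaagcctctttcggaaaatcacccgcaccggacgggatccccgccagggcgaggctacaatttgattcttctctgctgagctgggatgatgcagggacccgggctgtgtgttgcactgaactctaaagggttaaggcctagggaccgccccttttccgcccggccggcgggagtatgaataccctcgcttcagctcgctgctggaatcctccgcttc
Des: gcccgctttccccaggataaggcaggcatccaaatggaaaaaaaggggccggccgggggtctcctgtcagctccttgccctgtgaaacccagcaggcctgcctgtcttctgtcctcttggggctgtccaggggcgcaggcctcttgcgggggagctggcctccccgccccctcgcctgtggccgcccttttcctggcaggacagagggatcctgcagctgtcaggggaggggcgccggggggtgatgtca
The Bfsp1 stretch held 1 forkhead core, TGTTTG on the reverse strand, beginning 138 bases before the start. The Bfsp2 stretch held 1 CCAAT, 38 bases before the start. The Nes and Des stretches held none of the letters searched. Over the members, 9 had 11 such windows and 3 windows held a forkhead core, those of Bfsp1, Lmnb2 and the second Lmna start. Among the 32851 windows of all genes, 39.0% held at least 1 forkhead core, 12.4% held TATAAA and 33.8% held CCAAT. A match is a description of letters and says nothing of binding.

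The beaded filament genes were close to equal in both lenses. Bfsp1, filensin, read 233076 in Foxp1 KO lens and 241657 in wild-type lens, a log2 difference of -0.04. Bfsp2, phakinin, read 138703 in Foxp1 KO lens and 136073 in wild-type lens, a difference of 0.04. Both lay within the error that the scanner software assigns to such a difference (0.20 on the log2 scale for each). They also lay within 0.08, the SD of a spot difference among probes printed at least 5 times in the same signal class. The pair carried 1 probe each. Both signs depended on the processing. Bfsp1 was at 0.03 after normexp correction and Bfsp2 at -0.08 when the 75th percentile was taken over probes above background on both arrays. Bright probes near the top of an array's range can compress a difference, although no spot was saturated (0 on each array).

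Partners of the fibre filament differed little as a list. All 18 of the genes on the array that encode membrane skeleton, junction and crystallin partners of the fibre were measured, of 19 listed. None was 2-fold apart. The median was 0.03, with 10 genes above 0 and 8 below. Ppl, periplakin, a linker that joins filaments to the fibre membrane, read 5074 in Foxp1 KO lens and 3683 in wild-type lens, a difference of 0.47. Its partner Evpl, envoplakin, read 118 in Foxp1 KO lens and 163 in wild-type lens, a difference of -0.46. N-cadherin, Cdh2, differed by 0.27 over 2 probes. Of the plakins and other filament linkers, 9 of 10 were measured, 5 above and 4 below 0, with none past 2-fold and a median of 0.08. Tchp, trichoplein, a keratin filament binding protein, differed by 0.47 over 2 probes, and the cross-linkers Macf1 and Plec, plectin, by 0.25 and 0.21. Sync, syncoilin, differed by 0.28 at a dim signal.

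Vimentin followed the same level pattern. Vim read 47175 in Foxp1 KO lens and 45529 in wild-type lens, a difference of 0.06 from 1 probe. Of the measured genes, 41.1% differed by as much or more in the same direction. Its sign turned with scaling to the 75th percentile of the measured probes, at -0.06.

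Synm, synemin, a large filament protein that co-polymerises with vimentin and desmin, was read by 5 probes, each of which was lower in Foxp1 KO lens. The 3 bright probes read 6994, 7197 and 6406 in Foxp1 KO lens, against 7855, 7406 and 6614 in wild-type lens. The 2 dimmer probes read 753 and 713 in Foxp1 KO lens, against 949 and 865 in wild-type lens. Differences were -0.16, -0.03 and -0.03 for the bright probes and -0.32 and -0.27 for the dimmer ones, so the probes of this gene did not agree in size. Their mean was -0.16 ± 0.13 (SD over 5 probes), or 1.12-fold lower in Foxp1 KO lens. The bright probes lay within the software's error of 0.20 and the dimmer ones outside it. After normexp correction the bright probe at 6406 in Foxp1 KO lens turned to 0.03, so its direction depended on the processing. Among 1126 genes of like signal, within 0.5 on the log2 scale, the median difference was 0.09, and 7.02% were as low as Synm or lower.

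Nes, nestin, the filament protein of neural progenitors and of some lens cells, had the highest difference of the members. It read 2359 in Foxp1 KO lens and 1695 in wild-type lens, a difference of 0.49, or 1.40-fold. That is larger than the software's error of 0.20 and the spot SD of 0.08 in its signal class, and it rests on 1 spot on each array. Of 1356 genes of like signal, 5.83% were as high or higher, around a median of 0.10. Of 4 other neuronal filament genes measured, 3 lay above 0. Nefm, a neurofilament subunit, read 338 in Foxp1 KO lens and 157 in wild-type lens, which is 2.18-fold higher, or 0.87 on the log2 scale after normexp correction. Nefl read 1143 in Foxp1 KO lens and 597 in wild-type lens, a difference of 0.95, and Ina, alpha-internexin, read 2283 and 1644 in the same order, a difference of 0.49. The heavy subunit Nefh was dim, at 20.6 in Foxp1 KO lens and 35.7 in wild-type lens, with probes that disagreed (-0.78 ± 1.26, SD over 2 probes). Prph, peripherin, was well above background in wild-type lens only. The list of 5 held 1 gene past 2-fold, Nefm, and the median of those measured was 0.72. Their summed brightest signals were 3805 in Foxp1 KO lens and 2492 in wild-type lens. Their part in the Nes reading was not tested.

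Gfap, glial fibrillary acidic protein, the filament protein of astrocytes and reactive Mueller glia, had the lowest difference among the measured members. Its brightest probe read 629 in Foxp1 KO lens and 893 in wild-type lens, a difference of -0.49. The others read 80.3 and 42.8 in Foxp1 KO lens, against 105.7 and 77.1 in wild-type lens, differences of -0.38 and -0.84. All 3 probes were lower, by a mean of -0.57 ± 0.24 (SD over 3 probes), or 1.49-fold lower in Foxp1 KO lens. The largest difference came from the dimmest probe, in the range where spike-ins read lower too. The brightest probe lies between spike-ins that differed by -0.20 (wild-type signal 566) and -0.03 (wild-type signal 1534). Among 1860 genes of like signal, 10.4% were as low or lower, with a median of -0.05. Other glial markers lay mostly above 0. Of 9 astrocyte and Mueller glia genes, 8 were measured, 6 above and 2 below 0, with none past 2-fold and a median of 0.24. Slc1a3, a glial glutamate transporter, differed by 0.61, the water channel Aqp4 by 0.52 over 2 probes and glutamine synthetase, Glul, by 0.28, while Rlbp1, a retinoid binding protein of Mueller glia, differed by -0.32. Their summed brightest signals were 4511 in Foxp1 KO lens and 4090 in wild-type lens.

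Des, desmin, the filament protein of muscle cells, was printed as 10 spots on each array, 9 of them free of outlier flags. In Foxp1 KO lens the spots read from 4.97 to 15.2 with a median of 9.99, and 2 of 9 were well above background. In wild-type lens they read from 52.3 to 70.5 with a median of 60.4, and 9 of 9 were well above background. The spots of the arrays did not overlap. Set against the dimmest Foxp1 KO spot with a well-above-background call (12.1), the bound for Des was 5.02-fold, lower in Foxp1 KO lens. This bound holds only for the scaling of the reported values. The reading lies in the dim range. A spike-in RNA with a wild-type signal of 54.1 read 6.10 in Foxp1 KO lens, a difference of -3.14, whereas the mean of the Des spots themselves differed by -2.70. Of all genes on the array, 8.76% were above background in wild-type lens only. The median bound of these genes was 3.11-fold, and 93.0% had a bound of at least 2-fold. A bound as large as that of Des or larger was found for 15.2% of them. The mean Des difference was -1.99 with loess, -1.62 with array medians and -1.50 after quantile normalization. Each of these is smaller in size than the bound, so the bound is not a minimum over the settings. The mean Des difference was -0.80 after normexp correction of the raw signals, a fold below 2. That correction adds an offset of 50, which shrinks differences of signals this dim, so it cannot decide the size of the Des difference.

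**Figure D2:**
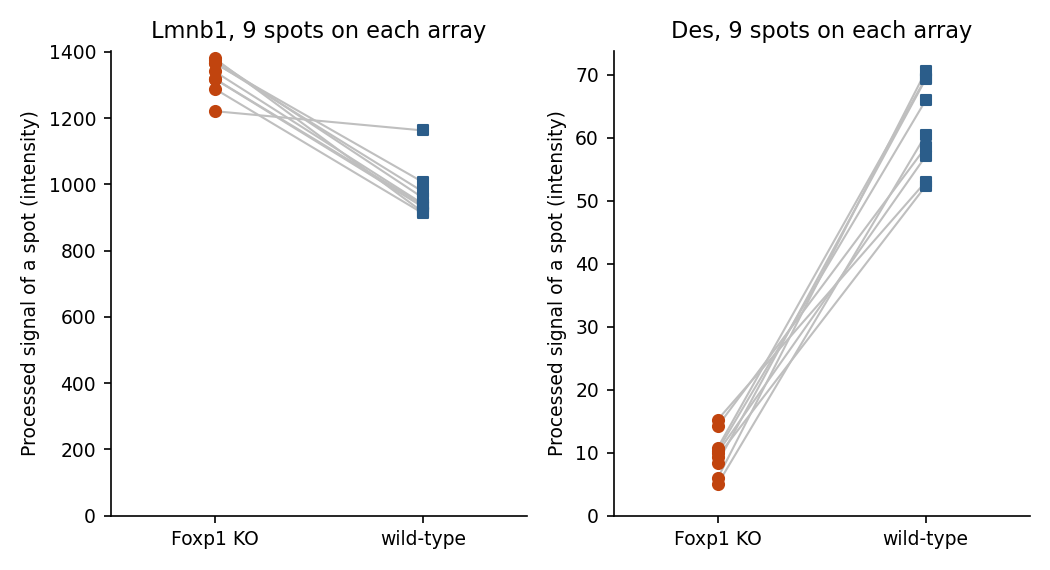
Processed signal (intensity) of each spot of Lmnb1 (left) and Des (right), with Foxp1 KO left of wild-type, 9 spots on each array, and lines that join spots at the same position. Each Lmnb1 spot was brighter in Foxp1 KO lens, and each Des spot was dimmer, at 4.97 to 15.2 in Foxp1 KO and 52.3 to 70.5 in wild-type lens.

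Muscle and mesenchyme genes, set beside Des, differed among themselves. Of 12 mesenchyme, smooth muscle and pericyte markers 8 were measured, 6 above and 2 below 0. Past 2-fold there were 3 higher genes and 0 lower ones, and the list median was 0.27. Over all 14254 measured genes, 143 were at least 2-fold higher and 839 at least 2-fold lower. Acta2, smooth muscle actin, read 3865 in Foxp1 KO lens and 914 in wild-type lens, 4.26-fold higher, and its log2 difference lay between 1.97 and 3.17 over the alternatives. The collagen genes Col3a1 and Col1a1 were 2.84-fold and 2.06-fold higher at dim signals (0.69 and 0.46 on the log2 scale after normexp correction), and Cspg4, a pericyte proteoglycan, differed by -0.97, also at a dim signal. Cnn1 was above background on neither array. The matrix proteoglycan genes Dcn and Lum were above background in Foxp1 KO lens only, Dcn at 158 in Foxp1 KO lens and 22.2 in wild-type lens, and Lum at 48.9 and 4.34 in the same order. Myh11, smooth muscle myosin, was above background in wild-type lens only, at 7.01 in Foxp1 KO lens and 24.3 in wild-type lens. Skeletal muscle markers were dim, with 7 of 10 measured, 2 above and 5 below 0, 1 at least 2-fold lower and a median of -0.69. Dim genes read lower as a class. At mean signals of 17.1 to 41.1 the median of all measured genes was -0.61, with 434 of 1426 at least 2-fold lower. At 41.2 to 72.8 it was -0.36, with 252 of 1425 lower by that size. At 72.9 to 123 it was -0.16, with 74 of 1425. Whether the list lay below genes of like signal was not tested. Tnnt3, a troponin, was 2.33-fold lower (-0.50 on the log2 scale after normexp correction), and Tnni2, Acta1 and Tnnt1 differed by -0.94, -0.91 and -0.69. The defining genes Myod1, Myog and Ckm were above background on neither array. The other measured mesenchyme markers, Tagln, Rgs5, Pdgfrb and Pdgfra, differed by 0.49, 0.05, 0.02 and -0.02. Summed brightest signals were 5851 in Foxp1 KO lens and 2546 in wild-type lens for the mesenchyme list. Acta2 alone gave 3865 and 914 of these sums, so they mostly follow 1 gene. For the skeletal muscle list they were 397 in Foxp1 KO lens and 583 in wild-type lens. Endothelial genes had a median of -0.16, with 2 above and 6 below 0 of 8 measured. Of these Emcn was 2.18-fold lower at a dim signal (-0.45 on the log2 scale after normexp correction), and Tek, Pecam1 and Plvap differed by 0.86, -0.63 and -0.34. Their summed brightest signals were 3549 in Foxp1 KO lens and 3882 in wild-type lens. The part of such cells in the filament readings was not tested, and in tissue RNA fewer cells of a type cannot be told apart from less RNA per cell.

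**Figure D3:**
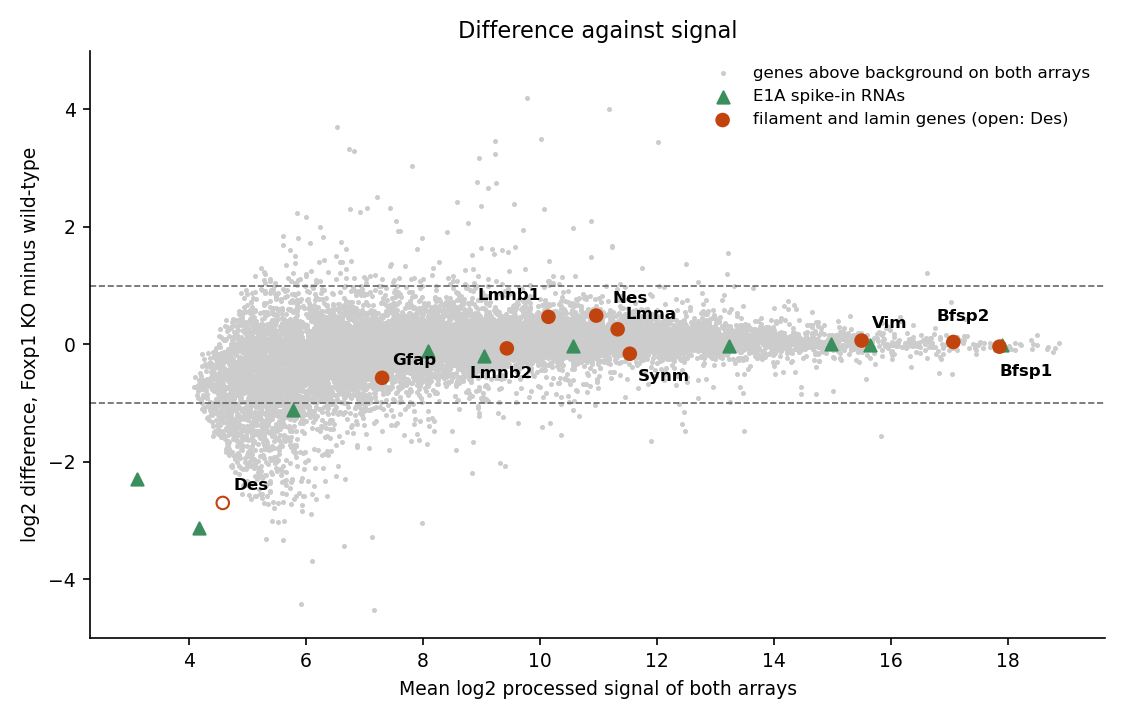
Log2 difference (Foxp1 KO minus wild-type) against the mean log2 processed signal of both arrays, for genes above background on both arrays (grey), E1A spike-in RNAs (triangles) and the 10 filament and lamin genes (circles, Des open), with dashed lines at 2-fold. The 3 dimmest spike-ins lie between -3.14 and -1.12 with Des beside them, while Nes and Lmnb1 lie at 0.49 and 0.47 in a range where spike-ins differ by -0.20 to -0.03.

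Of the lamins, Lmnb1 and Lmna read higher in Foxp1 KO lens and Lmnb2 was close to level. Lmnb1, lamin B1, a farnesylated lamin of the nuclear envelope that is abundant in dividing cells, was printed as 10 spots, of which 9 had no outlier flag. In Foxp1 KO lens the spots read from 1221 to 1380.1 with a median of 1341. In wild-type lens they read from 913 to 1163 with a median of 941. These spots of the arrays did not overlap, and 9 of 9 were brighter in Foxp1 KO lens. The flagged spot read 971 in Foxp1 KO lens and 683 in wild-type lens, so with it the ranges overlap. How often the spots of other probes printed repeatedly separate in this way was not counted, for Lmnb1 or for Des. The difference was 0.47 ± 0.15 (SD over 9 spots), or 1.38-fold, and single spots differed by 0.08 to 0.60. The spots share 1 labelled RNA on each array, so their spread is that of the array and not of animals. Of 1643 genes of like signal, 6.88% were as high or higher, around a median of 0.09. Lmna, which encodes lamins A and C, read 2805 in Foxp1 KO lens and 2369 in wild-type lens, a difference of 0.26 from 1 spot on each array. That is above the software's error of 0.20, but Lmna fell below 0.20 under some alternatives. It was at 0.13 with the 75th percentile of measured probes, 0.14 with quantile normalization and 0.16 with loess. Of genes of like signal, 18.7% were as high as Lmna or higher, around a median of 0.10. Lmnb2, lamin B2, read 674 in Foxp1 KO lens and 714 in wild-type lens, a difference of -0.07 that lies within the error of 0.20 and turned to 0.02 after normexp correction.

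**Figure D4:**
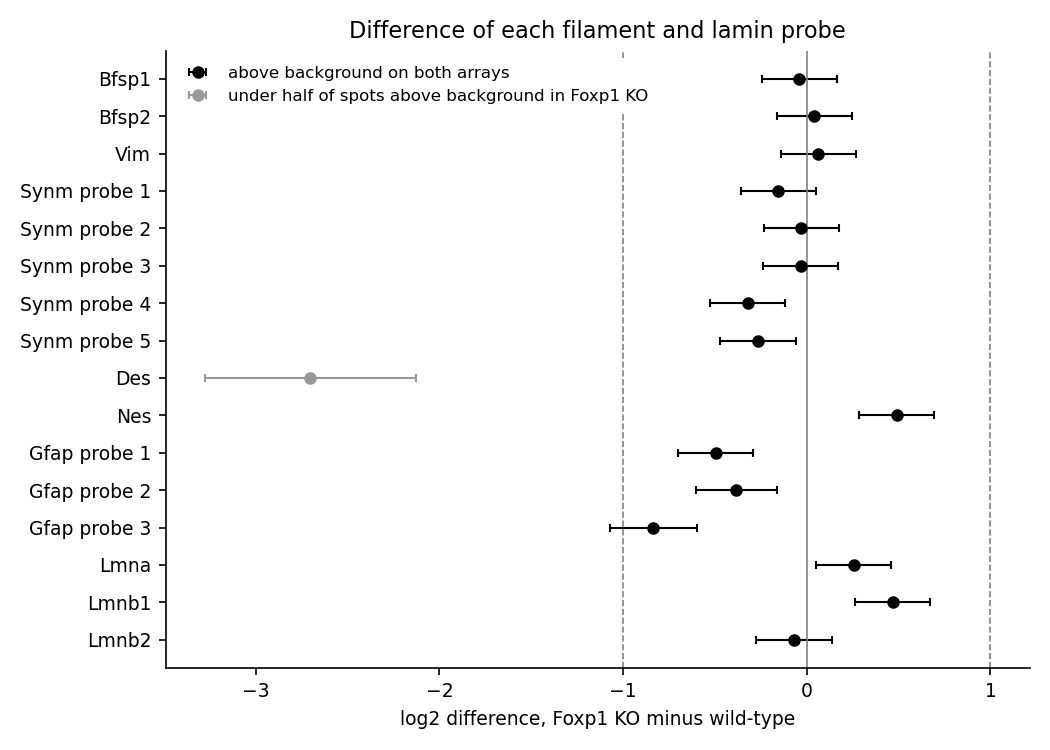
Log2 difference (Foxp1 KO minus wild-type) of each of the 16 probes, with the error that the scanner software gives for such a difference as bars and dashed lines at 2-fold. Grey marks Des, whose mean of -2.70 rests on spots mostly not above background in Foxp1 KO lens. The 15 measured probes lie between -0.84 and 0.49.

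Genes that process lamins or bind the lamina were mostly close to 0. Of 24 listed, 23 were measured, 13 above and 10 below 0. Past 2-fold there were 0 higher genes and 2 lower ones, beside 143 higher and 839 lower of all 14254 measured genes. The list median was 0.05. Tmpo, which encodes the lamina-binding LAP2 proteins, differed by 0.39 ± 0.02 (SD over 4 probes), at 578 in Foxp1 KO lens and 446 in wild-type lens. After normexp correction the lower genes, Mlip and Sun1, lay at -0.57 and -0.49. Mlip, which encodes a lamin-interacting protein, was 3.78-fold lower at 14.6 in Foxp1 KO lens and 55.6 in wild-type lens. Sun1, a linker of nucleus and cytoskeleton, was 2.11-fold lower on average over 2 probes that disagreed (-1.07 ± 1.11, SD over 2 probes). Its brightest probe alone, which read at least 100 on both arrays, differed by -0.29, short of 2-fold. Ankle2, a regulator of nuclear envelope assembly, differed by -0.79 at a dim signal.

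Genes tied to the loss of nuclei and organelles in fibres had 9 of the 10 on the array measured, 5 above and 4 below 0, none past 2-fold and a median of 0.01. Hsf4, the heat shock factor of fibre cells, differed by 0.33 and Fyco1, an autophagosome transport protein, by 0.22. Alox15, a lipoxygenase, differed by -0.77, at 168 in Foxp1 KO lens and 289 in wild-type lens. Transcription factors of lens fibre genes had 9 of 9 measured, 6 above and 3 below 0, none past 2-fold and a median of 0.10, with Gata3, Sox2 and Foxe3 at 0.69, 0.55 and 0.34. The medians of this list, of the organelle list, of the lamina partners, of the filament linkers and of the fibre partners turned to between -0.11 and -0.02 when the scaling percentile came from measured probes alone. Among 17 other cytoplasmic filament genes, which include the neuronal ones above, 14 were measured, 5 above and 9 below 0. The list median of -0.14 turned to 0.36 under quantile normalization. Past 2-fold there was 1 higher and 1 lower gene, beside 6.89% of all measured genes either way. The lower one was the keratin gene Krt7, at 21.5 in Foxp1 KO lens and 97.0 in wild-type lens, 4.47-fold lower, in the dim range (-0.88 on the log2 scale after normexp correction). The keratin gene Krt14 differed by -0.97 at 21.5 in Foxp1 KO lens and 42.3 in wild-type lens.

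**Figure D5:**
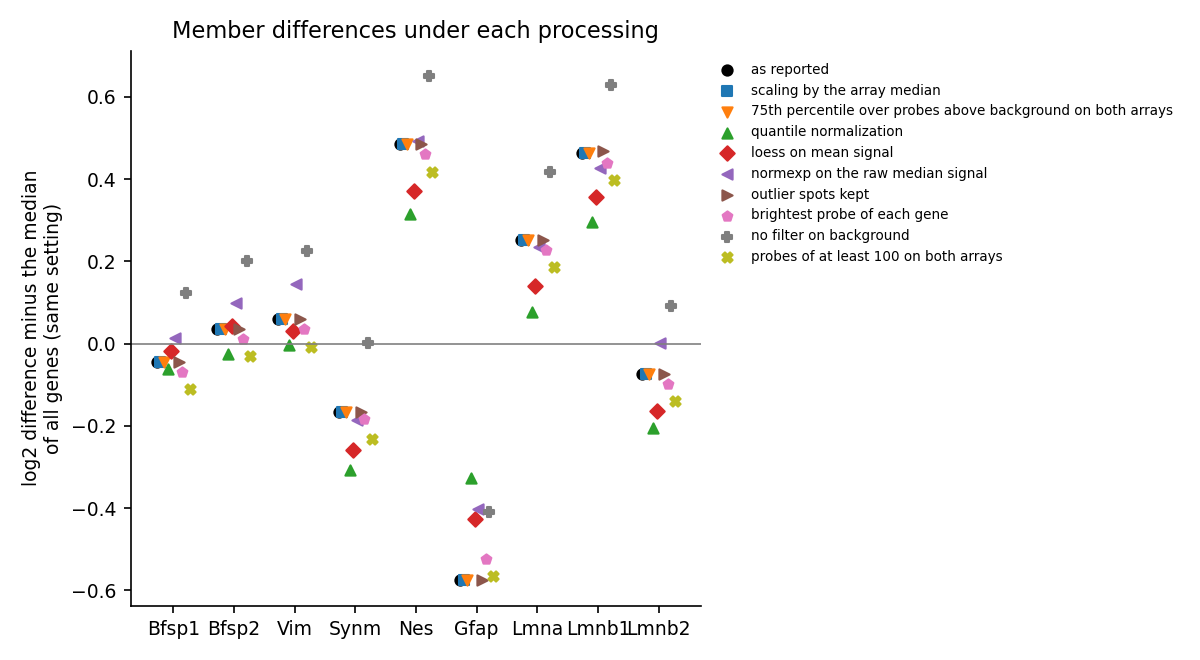
Log2 difference of each of the 9 measured members minus the median of all genes in the same setting, for the values as reported (black) and 9 alternatives. Nes, Lmna and Lmnb1 lie above 0 and Gfap below 0 in each setting, while Bfsp1, Bfsp2, Vim, Synm and Lmnb2 cross 0. Changes of scale cancel in this measure, so the settings are not separate checks.

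Relative to the median of all genes, Nes lay between 0.31 and 0.65 over the values as reported and the 9 alternatives, Lmnb1 between 0.29 and 0.63 and Lmna between 0.08 and 0.42. Gfap lay between -0.58 and -0.33. Synm lay between -0.31 and 0.00 and was above 0 only without a filter on background. In that setting Synm itself stayed at -0.16, and the median of all genes fell to -0.16. The highest relative values of Nes, Lmnb1 and Lmna came from the same change of the median. The plot of settings shows the same values. A change of scale cancels in values relative to the median, so such alternatives could not move them. The filters and the choice of probe left the own differences of Nes, Lmnb1 and Lmna unchanged. Only quantile normalization, loess and normexp could move Nes and Lmna themselves. In that order they gave 0.31, 0.37 and 0.49 for Nes and 0.08, 0.14 and 0.23 for Lmna, relative to the median.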

How the data were processed

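Total RNA of newborn mouse lens was labelled with Cy3 and hybridised to Agilent 8x60K arrays, per the labels' protocols, 1 array labelled Foxp1 KO and 1 labelled wild-type. The authors deposited intensities of single spots, extracted with Agilent Feature Extraction 10.7.3.1, per the file headers, on a layout annotated to mm9. The processed signal is background-subtracted by that software. Its flags are deposited scores of yes or no. No scaling between arrays is recorded.

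Control spots and spots with an outlier flag in either genotype were dropped (2 of 34 member spots). The log2 of each processed signal minus the array's 75th percentile was averaged over the spots of a probe, and the Foxp1 KO minus wild-type difference over the measured probes of a gene. A probe was measured when over 50% of its spots passed the well-above-background flag in each genotype. Calls used a fixed 2-fold size. A gene bright on 1 array only received a bound, the bright mean over the higher of the dim probe's mean and the lowest signal called well above background there (12.1 in Foxp1 KO, 20.6 in wild-type). Probes were named through unversioned RefSeq accessions in GRCm38.p6, which gave 27225 of 55655 probes a symbol. The software error is its deposited error of both signals, propagated to log2. The members and the 11 gene lists were chosen with earlier results of these data known. Named genes are the 10 members, Foxp1, and of each list every gene 2-fold apart and up to 4 that differed most. Others appear where stated or where above background on 1 array or neither. Alternatives changed scaling, background correction (limma 3.58.1), outlier flags, probe choice and filter. The files hold no mean spot signal, so normexp used the median spot signal. It added an offset of 50 to each corrected signal. The offset shrinks differences of dim probes, so the normexp values of dim genes do not decide their size. The steps were tested on simulated data with the same noise at every signal. The simulation held no offset of dim probes between arrays, so it could not check the dim readings. The number of arrays limits the precision.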

Additional observations from a re-analysis of the deposited data

How the results depend on the processing

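No paired analysis was possible because each genotype had 1 array. Array medians as the scale moved all genes up by 1.08. They put 7 members at least 2-fold higher and the member median at 1.12. Under it the list medians were 1.11 (fibre partners), 1.16 (filament linkers), 1.80 (neuronal filaments), 0.95 (other filaments), 1.13 (lamina partners), 1.09 (organelle loss), 1.18 (fibre transcription factors), 1.36 (mesenchyme), 0.39 (skeletal muscle), 1.32 (glia) and 0.92 (endothelium). In the other 8 alternatives no member was 2-fold higher (0), and 1, Des, was 2-fold lower, when no filter on background was used. The counts of all genes at least 2-fold higher and lower were 143 and 839 as reported, 8767 and 100 with array medians, 774 and 233 with quantile normalization, 267 and 366 with loess, 72 and 100 with normexp, 290 and 4479 without a filter, and 86 and 54 over probes of at least 100. The neuronal filament median was 0.49 without a filter and 0.95 over probes of at least 100. The median of other filament genes changed sign, with 0.36 under quantile normalization, 0.033 with loess, 0.053 with the brightest probe, 0.27 over probes of at least 100 and -0.36 without a filter. The skeletal muscle median was -0.20 under quantile normalization and -0.50 with normexp. Sun1 turned to 0.0089 with array medians. The member median was -0.08 when the scaling percentile came from measured probes alone. The cause of these moves was not tested. Signals below about 100 limit what can be said of Des, of the dimmer Gfap probes and of the dim list genes.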
